A study of Homo sapiens with 6 samples.

Results

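The mitochondrial ribosomal protein genes are the nuclear genes for the proteins of the ribosome inside mitochondria. They were taken as every row of the count table whose symbol was MRPL or MRPS followed by a number and an optional letter, which gave 77 of 29436 gene symbols. By symbol, 48 belonged to the large subunit (MRPL) and 29 to the small subunit (MRPS), and 1 antisense row, MRPL23-AS1, was left out. The groups were 3 lipoic acid libraries (100 µg/ml alpha lipoic acid in the blood-inducing medium) and 3 untreated libraries (the same medium without it). All 6 came from the human embryonic stem cell line H1, an established line, differentiated on AGM-S3 stroma and sorted on day 8 for hemogenic endothelium, the endothelial cells that give rise to blood. Cells carrying CD34, CD144 and KDR but not CD43 were kept, 1000 per library, and amplified polyA cDNA was sequenced. The study set out to learn how lipoic acid, an antioxidant and cofactor of mitochondrial dehydrogenases, raises the yield of blood progenitors, and the comparison here asks how the transcripts of the mitochondrial ribosome stood in those cells.

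The mitochondrial ribosome makes the few proteins encoded by mitochondrial DNA, all of them parts of the respiratory chain and ATP synthase. Its rRNAs are transcribed inside the organelle, whereas all of its proteins are encoded in the nucleus, made in the cytosol and imported. Many of these proteins descend from those of the bacterial ribosome and others are found only in mitochondria. Symbol and structure differ for a few of them: MRPS30 (structural name mL65) and MRPS18A (mL66) sit in the large subunit, and MRPS36 is now placed in the 2-oxoglutarate dehydrogenase complex, a lipoylated enzyme, and not in the ribosome.

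Total counts ran from 30041494 to 41351951 per library. In all lipoic acid libraries and untreated replicate 1 even numbers made up 99.13% to 99.34% of the nonzero counts, and in untreated replicates 2 and 3 they made up 52.01% and 51.97%. Untreated replicate 2 also stood apart for the mitochondrial ribosomal protein genes: it was the highest of the 3 untreated libraries for 57 of the 74 tested members (77.0%), against 38.8% of all tested genes. Among transcripts of the sort gate, CD34, KDR and CDH5 (CD144) were present in every library and SPN (CD43) had no count in any. The 6 tested gate and endothelial markers changed with treatment, 4 down and 2 up, at a summed 9400 to 9720 CPM with lipoic acid and 10900 to 11000 CPM without. CD34 fell 1.78-fold, ESAM 1.6-fold, CDH5 1.56-fold and PECAM1 1.27-fold, while KDR rose 1.17-fold and TEK 1.2-fold. Levels are given as CPM, counts scaled to a common library size after TMM normalisation. Markers of other cell types also moved with treatment. Endoderm and hepatic markers rose in 7 of 8 tested cases, at a summed 148 to 220 CPM in lipoic acid libraries and 27.5 to 40.3 CPM in untreated libraries. Of 7 epithelial markers 6 rose, at a summed 410 to 476 CPM and 226 to 249 CPM, and 4 of 6 mesenchymal markers fell, at 831 to 1190 CPM and 1210 to 1520 CPM. Of the blood markers PTPRC and ITGAM, like SPN, were at 0 in every library, whereas LAPTM5 fell to 244 ± 14.7 CPM with lipoic acid, against 290 ± 7.32 CPM (adjusted p = 0.0068), and CD53 had 8.05 ± 1.42 and 9.24 ± 1.62 CPM (adjusted p = 0.405). What part these markers, the even counts and untreated replicate 2 have in the values below was not tested, except where a value without a library is given.

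Transcripts for the proteins of the mitochondrial ribosome were modestly lower with lipoic acid, in both subunits. Of the 77 genes 74 passed the filter on low counts. Among these 32 fell (43.2%, where 23.3% of all 13780 tested genes were called lower), 3 rose (4.05%, where 24.2% of all tested genes were called higher) and 39 did not pass, so that 35 were called in either direction, where 47.4% of all tested genes were. The test was the edgeR quasi-likelihood F test with Benjamini-Hochberg adjustment over all tested genes. The median log2 fold change was -0.24 over the 74 genes and -0.01 over all tested genes. Across the 32 genes the fall ran from 1.16-fold to 2.0-fold, with a median of 1.31-fold, and for 24 of them it was under 1.5-fold. The 2.0-fold end was MRPS36, which is now placed outside the ribosome. The 10 genes called lower under all 18 other settings of the processing, named below, fell 1.27-fold to 1.57-fold. In 39 of the 74 genes every lipoic acid library lay below every untreated library and in 6 it lay above, where 28.8% and 30.4% of all tested genes did so. CPM compares shares of a library, so fewer cells of a kind and less RNA per cell cannot be told apart in these sorted bulk samples.

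**Figure D1:**
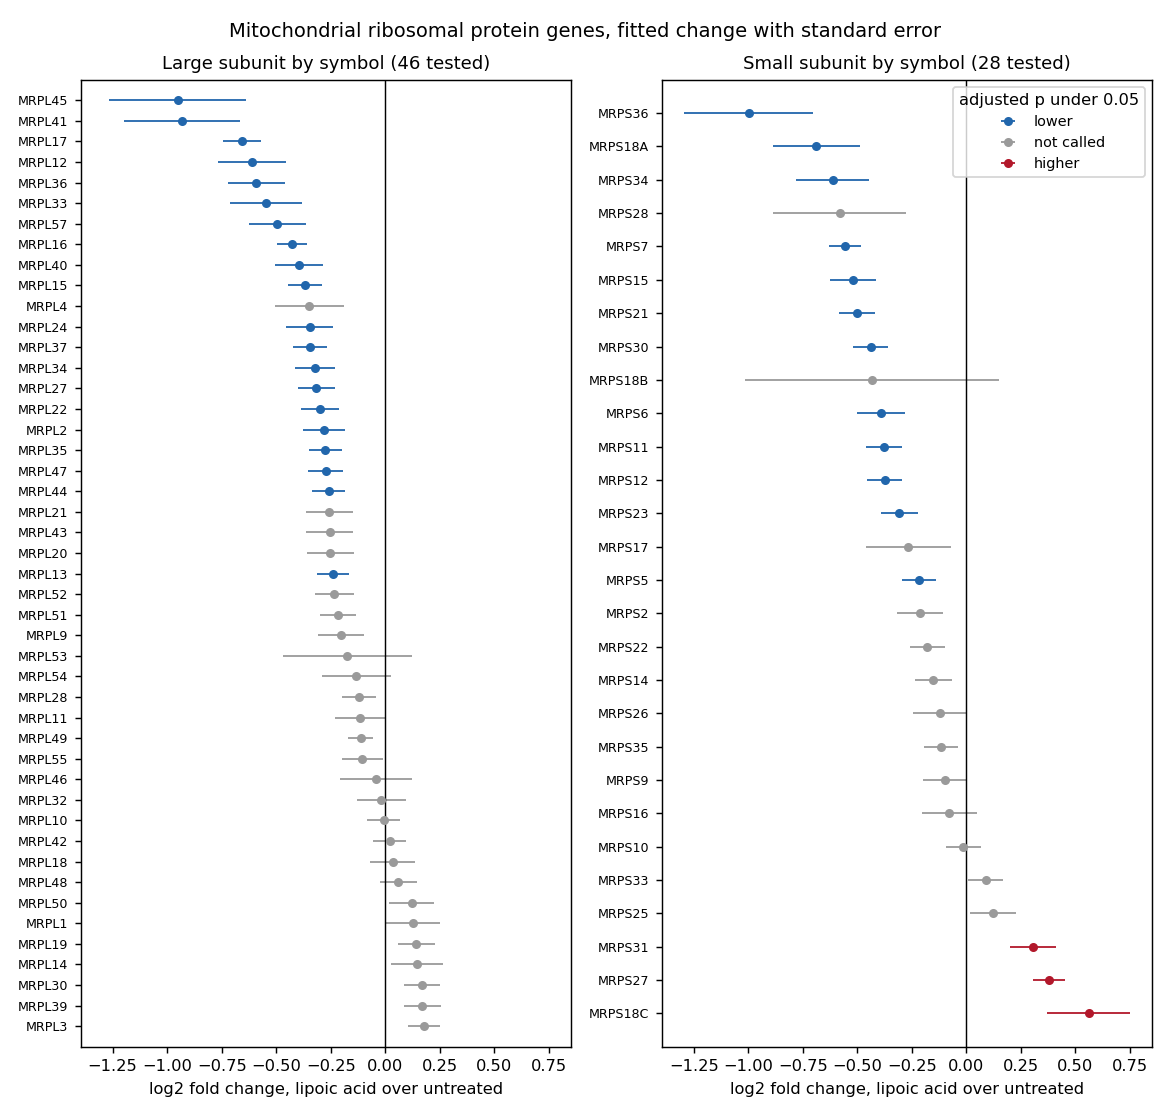
Fitted log2 fold change, lipoic acid over untreated, of each tested gene, with its standard error as a horizontal bar, for the large subunit (left, 46 genes) and the small subunit (right, 28 genes). Blue points are called lower (20 and 12 genes), red points higher (0 and 3 genes) and grey points did not pass an adjusted p of 0.05. Most points lie left of 0.

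Summed over its 48 genes, the large subunit had 1711, 1718 and 1670 CPM in lipoic acid replicates 1 to 3, against 1844, 2128 and 1879 CPM in untreated replicates 1 to 3. The sums did not overlap, and the lipoic acid mean of 1700 ± 26.3 CPM was 12.9% below the untreated mean of 1950 ± 155 CPM (SD, n = 3 each). For the 29 genes of the small subunit the sums were 845, 856 and 827 CPM in lipoic acid libraries and 926, 1004 and 926 CPM in untreated libraries. These did not overlap either, at 843 ± 14.7 CPM with lipoic acid and 952 ± 45.1 CPM without, 11.5% lower. Untreated libraries were more spread than lipoic acid libraries for both sums, with untreated replicate 2 the highest. On the log2 scale the difference of the large-subunit sums was -0.20, and -0.13 without untreated replicate 2, and that of the small-subunit sums was -0.17, and -0.14 without it.

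**Figure D2:**
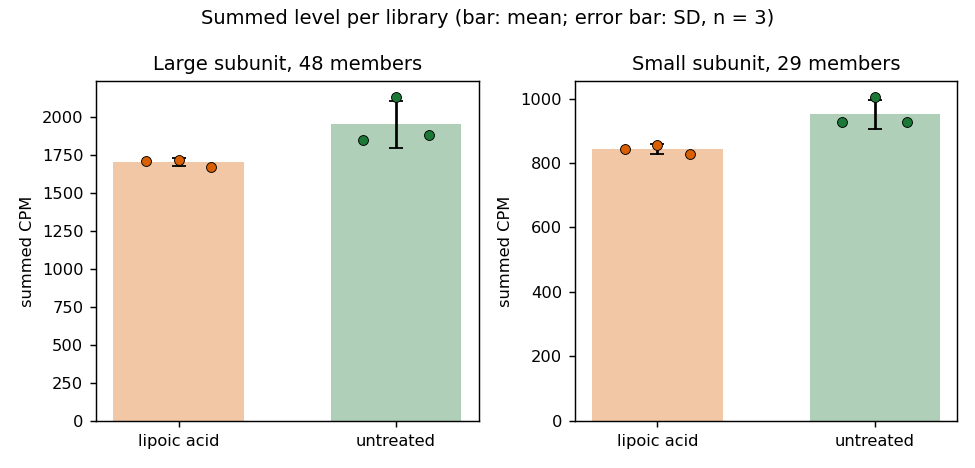
Summed CPM of the large-subunit genes (left, 48 genes) and small-subunit genes (right, 29 genes) in each library. Points are libraries, bars are group means and error bars are SD (n = 3 each). All 3 lipoic acid libraries lie below all 3 untreated libraries in both panels.

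In the large subunit 20 of 46 tested genes fell (43.5%), 0 rose and 26 did not pass. By edgeR 1 large-subunit gene was higher at an unadjusted p under 0.05, and at an adjusted p under 0.05 DESeq2 called 0 higher and limma voom 2. In the small subunit 12 of 28 fell (42.9%), 3 rose and 13 did not pass, and the median log2 fold change was -0.24 in each subunit. With MRPS30 and MRPS18A counted where the structure places them and MRPS36 left out, 22 of 48 large-subunit and 9 of 25 small-subunit genes fell. Of the 44 tested genes for homologues of bacterial proteins 21 fell and 1 rose (median -0.26), and of the 29 tested genes for mitochondria-specific proteins 10 fell and 2 rose (median -0.18). The classes follow the structural names, so MRPS18A (mL66), which fell, and MRPS18B (mS40) count as mitochondria-specific. Both are nonetheless related to a bacterial ribosomal protein, as described below. A difference between subunits or between these classes was not tested.

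The clearest falls were those of MRPL17, MRPL16, MRPS7 and MRPS21. They belong to a set of 10 genes called lower under all 18 other settings of the processing, chosen after their values were seen: MRPL15, MRPL16, MRPL17, MRPL36, MRPL37, MRPS7, MRPS11, MRPS15, MRPS21 and MRPS30, 5 of each symbol class, with fitted falls of 1.27-fold to 1.57-fold. MRPS27 was the 1 gene called higher under all of them. The promoters of 3 of the genes that fell and of MRPS27 are shown because the data bear on their transcripts. They were read from RefSeq (GRCh38.p14), from 250 bases before to 50 after the annotated start, 5′ to 3′ on the strand of the gene. Capitals mark matches, on either strand, to 3 sequence motifs of factors known for genes of mitochondria: CCGGAAG (ETS factors such as GABPA), GCATGCGC (NRF1) and AAGATGG (YY1).
MRPL17 (chr11:6683291-6683590, minus strand): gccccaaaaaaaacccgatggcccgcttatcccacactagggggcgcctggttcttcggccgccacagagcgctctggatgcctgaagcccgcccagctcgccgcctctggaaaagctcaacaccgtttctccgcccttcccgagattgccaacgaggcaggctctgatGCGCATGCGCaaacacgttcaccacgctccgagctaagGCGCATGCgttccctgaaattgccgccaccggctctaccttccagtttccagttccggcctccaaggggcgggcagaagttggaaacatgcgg
MRPS7 (chr17:75261629-75261928, plus strand): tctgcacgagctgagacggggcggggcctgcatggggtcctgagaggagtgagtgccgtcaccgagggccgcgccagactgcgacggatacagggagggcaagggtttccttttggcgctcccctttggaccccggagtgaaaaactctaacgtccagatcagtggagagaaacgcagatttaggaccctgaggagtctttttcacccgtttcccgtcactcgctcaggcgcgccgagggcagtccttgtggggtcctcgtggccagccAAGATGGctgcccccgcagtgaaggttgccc
MRPL16 (chr11:59810729-59811028, minus strand): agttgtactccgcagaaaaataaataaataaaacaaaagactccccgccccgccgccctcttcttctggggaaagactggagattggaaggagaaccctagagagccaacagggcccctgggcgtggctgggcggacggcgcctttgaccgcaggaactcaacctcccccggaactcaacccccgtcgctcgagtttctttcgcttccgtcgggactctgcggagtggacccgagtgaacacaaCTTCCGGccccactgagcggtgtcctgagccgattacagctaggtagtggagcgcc
MRPS27 (chr5:72320191-72320490, minus strand): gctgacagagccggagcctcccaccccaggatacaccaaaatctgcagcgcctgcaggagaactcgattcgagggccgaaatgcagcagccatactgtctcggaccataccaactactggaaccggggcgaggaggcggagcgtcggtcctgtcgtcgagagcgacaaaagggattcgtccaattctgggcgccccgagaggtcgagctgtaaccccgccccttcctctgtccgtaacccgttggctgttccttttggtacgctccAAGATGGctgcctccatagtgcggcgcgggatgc
In the MRPL17 promoter NRF1 matches began 81, 79 and 43 bases before the start, those at 81 and 79 bases overlapping as a palindrome on both strands. The ETS match in the MRPL16 promoter began 6 bases before the start, and the YY1 matches of MRPS7 and MRPS27 began 19 and 16 bases after it. The YY1 motif holds the letters ATG, and whether matches after the start are start codons of the protein was not tested. RefSeq held a promoter for 68 of the 77 genes. The ETS motif was found in 28 of these (41.2%), against 17.8% of the 10763 promoters of tested genes and 10.7% of all 27305 promoters. The YY1 motif was found in 23 (33.8%), against 7.22% and 6.06%, and the NRF1 motif in 6 (8.82%), against 5.17% and 3.27%. Among members that fell and members that did not pass, the ETS motif was found in 10 of 27 and 15 of 36, the YY1 motif in 8 of 27 and 12 of 36 and the NRF1 motif in 2 of 27 and 3 of 36, and a difference was not tested. CACGTG, the E-box bound by MYC, was found in 6 of the 68 promoters (8.82%), against 9.63% of promoters of tested genes, in 4 of 27 genes that fell and 1 of 36 that did not pass. This difference was not tested either, and the E-box was 1 of several motifs searched. GGGCGG (SP1) was found in 41 (60.3%), against 67.8% of promoters of tested genes, in 15 of 27 and 22 of 36. TTGCATCA (ATF4) was found in 0 of the 68, against 0.455%. A match is a description of the letters in the window and not evidence of binding.

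Among proteins of the large subunit, MRPL17 (chromosome 11, 6680782 to 6683401, minus strand, GRCh38) is the homologue of a bacterial protein near the tunnel through which the new chain leaves. Its levels were 107, 101 and 98.0 CPM in lipoic acid libraries, against 152, 184 and 146 CPM in untreated libraries. These did not overlap, and MRPL17 fell 1.57-fold (log2 fold change -0.66, SE 0.09, adjusted p = 0.000251). MRPL16 (chromosome 11, 59806135 to 59810872, minus strand), homologue of a protein next to the peptidyl transferase centre, had 39.4, 39.7 and 39.5 CPM with lipoic acid, against 53.1, 55.8 and 50.6 CPM untreated. The lipoic acid libraries were nearly equal and all below the untreated ones, and MRPL16 fell 1.35-fold (adjusted p = 0.000727). MRPL12, the stalk protein on which translation factors act, had 7.02, 5.82 and 6.72 CPM in lipoic acid libraries and 10.3, 10.5 and 9.11 CPM in untreated libraries. MRPL12 fell 1.53-fold (adjusted p = 0.0086), but another annotated gene on the same strand, AC139530.2, covers 68.2% of its exons, and it did not pass after each library was corrected for a dependence on GC content and exon length (log2 fold change -0.25, adjusted p = 0.16).

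Of the other large-subunit genes with the largest falls, MRPL36, which encodes a small zinc-binding protein, fell 1.51-fold to 10.6 ± 0.67 CPM with lipoic acid, against 15.9 ± 2.08 CPM (adjusted p = 0.00474). MRPL33 fell 1.46-fold, to 7.37 ± 1.34 CPM against 10.8 ± 0.55 CPM (adjusted p = 0.0209), and BABAM2, on the same strand, covers 21.1% of its exons. Its call was lost without lipoic acid replicate 2 (adjusted p = 0.0667) or 3 (0.0623), without untreated replicate 3 (0.0547) and within the 4 libraries of even counts (0.114). MRPL41, a mitochondria-specific protein, had 1.84, 1.46 and 1.93 CPM with lipoic acid and 3.63, 3.53 and 2.86 CPM without. It fell 1.91-fold (adjusted p = 0.0152) and did not pass after correction for GC content and length (log2 fold change -0.27, adjusted p = 0.379).

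Apart from MRPL45, described next, the remaining large-subunit genes that fell did so by 1.18-fold to 1.41-fold. MRPL57, a mitochondria-specific protein, had 17.4, 16.8 and 19.7 CPM in lipoic acid libraries and 23.1, 30.6 and 22.5 CPM in untreated libraries and fell 1.41-fold (adjusted p = 0.0113). MRPL37, also mitochondria-specific, had 89.5, 93.0 and 84.7 CPM and 111, 124 and 104 CPM and fell 1.27-fold (adjusted p = 0.00485). Among the homologues of bacterial proteins, MRPL2, which supports the peptidyl transferase centre, fell 1.22-fold to 24.2, 24.0 and 23.7 CPM, against 28.6, 32.6 and 26.3 CPM (adjusted p = 0.0327), and it was called in 9 of the 18 other settings. The homologues MRPL13, MRPL22, MRPL24, MRPL27, MRPL34, MRPL35 and MRPL47 and the mitochondria-specific MRPL40 and MRPL44 fell between 1.18-fold (MRPL13) and 1.32-fold (MRPL40). Each had its 3 lipoic acid libraries below its 3 untreated libraries and was called lower in 14 or 15 of the other settings. All genes of this paragraph were chosen after their values were seen.

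MRPL45 and MRPS36 had the largest fitted falls, and in both the untreated libraries disagreed. MRPL45, which encodes the protein that holds the ribosome to the inner membrane, had 5.98, 7.41 and 7.30 CPM in lipoic acid libraries, against 6.40, 15.3 and 18.3 CPM in untreated libraries. Untreated replicate 1, the untreated library of even counts, lay among the lipoic acid libraries. MRPL45 fell 1.94-fold (adjusted p = 0.0298), and within the 4 libraries of even counts its log2 fold change was 0.11 (adjusted p = 0.74). The MRPL45 call was also lost without any single lipoic acid library (adjusted p = 0.0729 to 0.106) and without untreated replicate 3 (0.139), and 2 pseudogenes of MRPL45 are annotated. MRPS36 had 4.88, 4.18 and 5.37 CPM with lipoic acid and 5.48, 14.0 and 9.38 CPM untreated. Here untreated replicate 1 lay just above the highest lipoic acid library. MRPS36 fell 2.0-fold (adjusted p = 0.0187), with a log2 fold change of -0.18 (adjusted p = 0.607) within the libraries of even counts and a lost call without lipoic acid replicate 1 (0.0581) or 2 (0.0739), and it has 5 annotated pseudogenes.

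**Figure D3:**
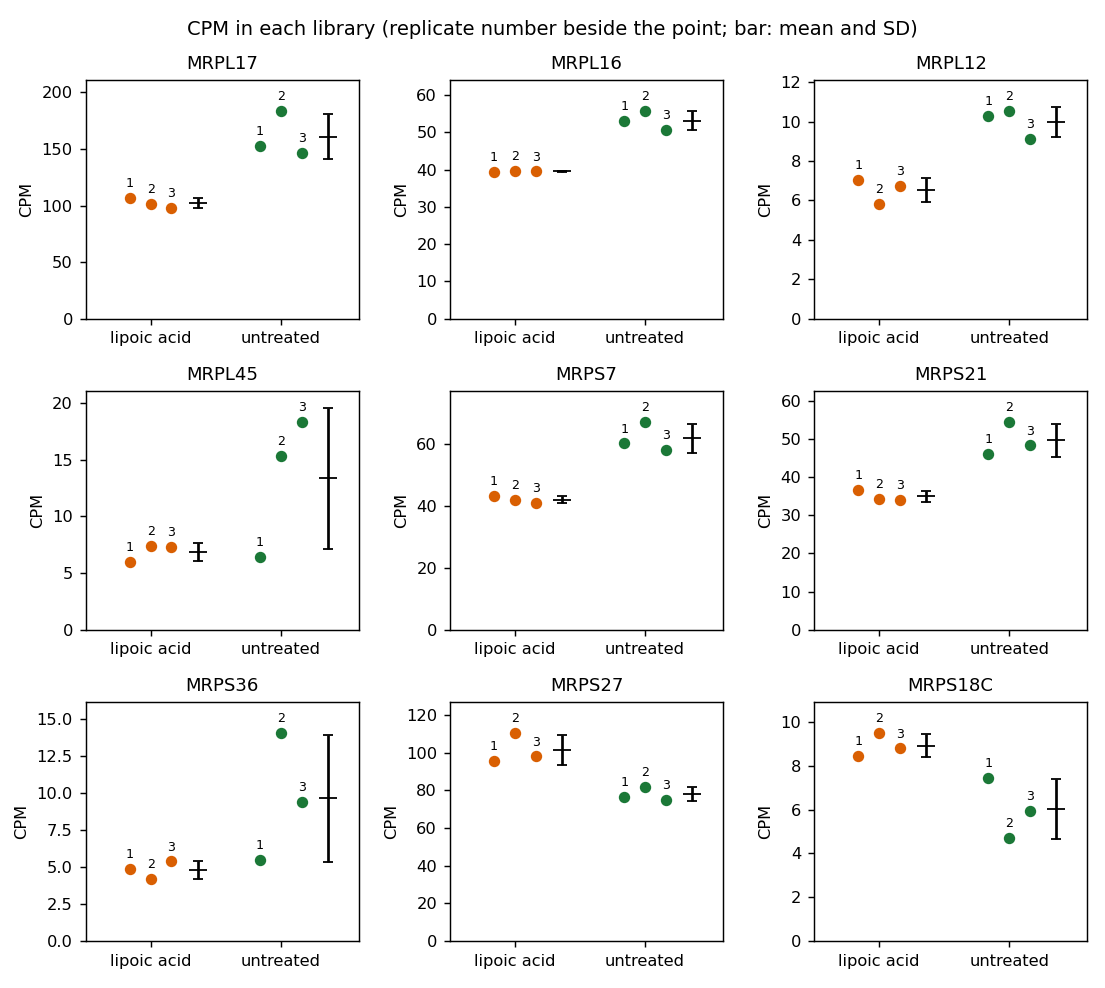
CPM of 9 genes in each library, lipoic acid left and untreated right, with the replicate number above each point and the mean and SD (n = 3 each) as the bar beside them. MRPL17, MRPL16, MRPL12, MRPS7 and MRPS21 are lower in every lipoic acid library and MRPS27 and MRPS18C higher, whereas untreated replicate 1 of MRPL45 and MRPS36 lies at the level of the lipoic acid libraries.

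Among proteins of the small subunit, MRPS7 (chromosome 17, 75261674 to 75266373, plus strand), whose bacterial homologue starts the folding of the subunit head, had 43.0, 42.0 and 40.8 CPM with lipoic acid, against 60.0, 66.9 and 58.0 CPM untreated. The groups were well apart, and MRPS7 fell 1.47-fold (log2 fold change -0.56, SE 0.07, adjusted p = 0.000263). MRPS21 had 36.7, 34.2 and 34.1 CPM and 46.1, 54.4 and 48.3 CPM and fell 1.42-fold (adjusted p = 0.00082). MRPS15, homologue of an early binder of the bacterial subunit's rRNA, fell 1.43-fold, to 38.4 ± 4.12 CPM against 55.1 ± 6.64 CPM (adjusted p = 0.00276). Both genes lay below the untreated libraries in every lipoic acid library. MRPS12, part of the decoding centre, had 33.8, 34.3 and 29.97 CPM with lipoic acid, against 41.7, 44.7 and 40.7 CPM untreated, and fell 1.3-fold (adjusted p = 0.00383). MRPS6 and MRPS23 fell 1.31-fold and 1.24-fold (adjusted p = 0.0138 and 0.0136), also with no overlap, and like MRPS12 were named after their values were seen. MRPS34, a mitochondria-specific protein, fell 1.53-fold to 8.6 ± 1.70 CPM, against 13.2 ± 1.32 CPM (adjusted p = 0.0123). The MRPS34 call was lost without lipoic acid replicate 2 (adjusted p = 0.0525) or 3 (0.0609), within the libraries of even counts (0.129) and after correction for GC content and length (0.146).

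Both genes filed under the small subunit whose proteins lie in the large subunit fell. MRPS30, a large-subunit protein, had 30.7, 32.9 and 29.3 CPM with lipoic acid, against 39.5, 45.0 and 41.3 CPM untreated, and fell 1.36-fold (adjusted p = 0.00171) with no overlap. The 3 genes related to the bacterial S18 protein took different courses. MRPS18A, in the large subunit, had 6.13, 6.14 and 6.19 CPM, against 8.55, 13 and 8.18 CPM, and fell 1.61-fold (adjusted p = 0.0164). RSPH9 covers 47.0% of its exons on the other strand, and the call was lost without lipoic acid replicate 1 (0.0541) or 3 (0.0548) and within the libraries of even counts (0.0881). MRPS18C, the form in the small subunit at the place of bacterial S18, had 8.47, 9.49 and 8.80 CPM with lipoic acid and 7.44, 4.72 and 5.95 CPM without, and rose 1.48-fold (adjusted p = 0.0334). MRPS18B (mS40), in the small subunit at another place, was near the lower limit of the test at 0.37, 0.38 and 1.31 CPM and 0.62, 0.96 and 1.23 CPM, which overlapped (adjusted p = 0.566).

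Besides MRPS18C, the genes that rose were MRPS27 and MRPS31, both for mitochondria-specific proteins. MRPS27 (chromosome 5, 72219409 to 72320646, minus strand), a protein with pentatricopeptide repeats that bind RNA, had 95.7, 110 and 98.0 CPM with lipoic acid, against 76.6, 82.0 and 75 CPM untreated. It was higher in every lipoic acid library and rose 1.3-fold (log2 fold change 0.38, SE 0.07, adjusted p = 0.00217). MRPS31 rose 1.24-fold, to 29.6 ± 3.26 CPM against 24.0 ± 1.95 CPM (adjusted p = 0.0344). The calls of MRPS18C and MRPS31 each held in 10 of 18 other settings. That of MRPS18C was lost without any single lipoic acid replicate (adjusted p = 0.0638 to 0.0863), without untreated replicate 2 (0.0594) or 3 (0.0803), within the libraries of even counts (log2 fold change 0.26, adjusted p = 0.31) and after correction for GC content and length (0.082). The MRPS31 call was lost without lipoic acid replicate 2 (adjusted p = 0.116) or 3 (0.0577), without untreated replicate 2 (0.0641), with limma voom (0.0677), within the libraries of even counts (0.13) and after that correction (0.0694). ABRAXAS1 covers 40.2% of the exons of MRPS18C on the other strand, and strand use in counting is not given in the sources used here.

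Of the 39 genes that did not pass, 27 had a fitted log2 fold change below 0 and 12 above 0, with a range of -0.58 to 0.18. The ends of this range, named after their values were seen, were MRPS28 and MRPL3. MRPS28 had 1.29, 2.21 and 1.55 CPM with lipoic acid and 2.58, 2.63 and 2.33 CPM without (adjusted p = 0.142). MRPL3 had 91.9, 100.3 and 97.4 CPM and 79.0, 91.8 and 85.1 CPM (adjusted p = 0.0671), and its lowest lipoic acid library lay just above its highest untreated library. MRPL3 was called higher in 6 of the 18 other settings, among them the correction for GC content and length (adjusted p = 0.0236). MRPL49, MRPL15 and MRPL51 had the highest large-subunit levels per kb of transcript and MRPS27, MRPS5 and MRPS15 the highest in the small subunit. This order depends on the annotated transcript length used, which was short for MRPL49 (509.5 bases) and MRPL51 (551 bases). MRPL49 had 188 CPM per kb with lipoic acid and 203 CPM per kb untreated, and its levels of 94.9, 98.0 and 94.8 CPM and 104, 104 and 103 CPM did not overlap but did not pass (log2 fold change -0.11, SE 0.06, adjusted p = 0.128). MRPL51, at 86.8 and 101 CPM per kb, was at the threshold (log2 fold change -0.22, adjusted p = 0.0511). MRPL15, at 85.3 and 110 CPM per kb, fell 1.29-fold (adjusted p = 0.0035), and MRPS5, which lines the path of the mRNA, fell 1.16-fold (adjusted p = 0.0438), a call lost without each library except untreated replicate 2 (0.0576 to 0.199). Across the tested genes the level per kb, averaged over both groups, ran from 0.53 for MRPS18B to 196 for MRPL49, with medians of 27.9 in the large and 17.6 in the small subunit.

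The genes too low to be tested were MRPL23, MRPL38 and MRPS24. MRPL23 and MRPS24 had no count in any library, which with even counts halved allows up to 0.053 CPM over the lipoic acid group and 0.0393 CPM over the untreated group at 3 counts. MRPL38 had 2 counts each in lipoic acid replicates 1 and 3 and none in the other libraries. AC087289.3 shares 37.5% of the exons of MRPL38 and URGCP-MRPS24 shares 23.2% of those of MRPS24 on the same strand. How the authors' counting treated reads shared between genes is not given in the sources used here. The low counts of MRPL38 and MRPS24 are therefore not evidence that these genes were silent. MRPL23 has an exon overlap of 0.0% on the same strand and 2.9% on the other. Why MRPL23 had no count was not tested, and its zeros are not taken as evidence that it was silent. Pseudogenes are annotated for 34 of the 77 genes, 75 in all, and no pseudogene of the family had a row in the table.

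Of the 5 mitochondrial ribosomal proteins with other symbols 2 fell (40.0%, where 23.3% of all tested genes were called lower) and 3 did not pass. GADD45GIP1, in the large subunit, fell 1.70-fold, to 7.85 ± 0.75 CPM with lipoic acid against 13.3 ± 2.76 CPM (adjusted p = 0.00457). AURKAIP1, in the small subunit, fell 1.36-fold, to 25.1 ± 1.74 CPM against 34.1 ± 3.76 CPM (adjusted p = 0.00473), although after correction for GC content and length its log2 fold change was 0.05 (adjusted p = 0.62). DAP3 (144 ± 5.26 and 131 ± 6.09 CPM), CHCHD1 (20.4 ± 2.90 and 23.1 ± 0.41 CPM) and PTCD3 (96.4 ± 3.30 and 90.4 ± 8.09 CPM), all of the small subunit, did not pass (adjusted p = 0.0852, 0.213 and 0.335). None of the 5 rose by edgeR, DESeq2 or limma voom on all libraries, and 1, DAP3, was higher at an unadjusted edgeR p under 0.05. DAP3 was called higher without untreated replicate 2 (adjusted p = 0.0379) and within the libraries of even counts (0.0375), and CHCHD1 lower without lipoic acid replicate 2 (0.0486).

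Among 24 tested genes for factors that build this ribosome, 5 rose (20.8%) and 3 fell (12.5%), no larger shares than the 24.2% and 23.3% of all tested genes, and the median log2 fold change was 0.13. ERAL1, a chaperone of the small-subunit rRNA, fell 1.37-fold to 68.9 ± 3.03 CPM, against 94.1 ± 10.3 CPM (adjusted p = 0.00183). FASTKD2, which acts in assembly of the large subunit, fell 1.35-fold, and METTL15, a methyltransferase of the small-subunit rRNA, fell 1.49-fold. AFG3L2, a subunit of the inner-membrane protease that matures MRPL32, rose 1.88-fold to 38.0 ± 1.33 CPM, against 20.2 ± 3.40 CPM (adjusted p = 0.000194).

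Among 17 tested translation factors of mitochondria 5 rose (29.4%) and 3 fell (17.6%), near the shares over all tested genes, at a median of 0.07. MTRF1L, which releases finished chains, fell 1.92-fold, at 88.1, 89.2 and 88.3 CPM in lipoic acid libraries and 137, 195 and 179 CPM in untreated libraries (adjusted p = 0.000109). MTIF2, the initiation factor, rose 1.49-fold (adjusted p = 0.000313), GUF1, a homologue of the bacterial elongation factor LepA, 1.31-fold and LRPPRC, which stabilises mitochondrial mRNAs, 1.29-fold. Of 12 genes of mitochondrial transcription and RNA processing 2 rose and 2 fell (16.7% each, below the shares over all tested genes), at a median of -0.03. TFB2M, a transcription initiation factor, rose 1.95-fold, to 27.3 ± 0.46 CPM against 14.0 ± 0.60 CPM, and PNPT1, an RNA-degrading enzyme, rose 1.44-fold. POLRMT, the mitochondrial RNA polymerase, fell 1.42-fold, to 14.7 ± 0.86 CPM against 20.9 ± 1.32 CPM (a call lost after correction for GC content and length, adjusted p = 0.141). HSD17B10, a subunit of the enzyme that cuts mitochondrial tRNAs, fell 1.23-fold (a call lost on leaving out lipoic acid replicate 3, adjusted p = 0.0872, and after that correction, 0.0545).

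Counts from the mitochondrial rRNA genes, and from the mRNAs that this ribosome reads, were higher in the same libraries. The cDNA was made from polyA RNA, so the rRNA values need not measure the rRNA held in ribosomes. MT-RNR2 and MT-RNR1, the large- and small-subunit rRNAs, had 2998 ± 136 and 284 ± 20.6 CPM with lipoic acid and 1359 ± 80.3 and 130 ± 13.7 CPM untreated. All 13 mitochondrially encoded protein genes rose (median log2 fold change 0.74), where 24.2% of all tested genes were called higher. Those of lowest p were MT-ND4L and MT-ND4, of complex I, and MT-CO1 and MT-CO3, of cytochrome oxidase. For the ribosome of the cytosol 17 of 85 tested protein genes fell and 4 rose (4.71%), at a median log2 fold change of -0.08. Mitochondrially encoded genes made up 4.39% to 5.02% of counts with lipoic acid and 2.45% to 2.82% without, and with them left out, 32 members were called lower and 3 higher. The lists share their libraries with the mitochondrial ribosomal protein genes, and a difference between the lists was not tested.

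**Figure D4:**
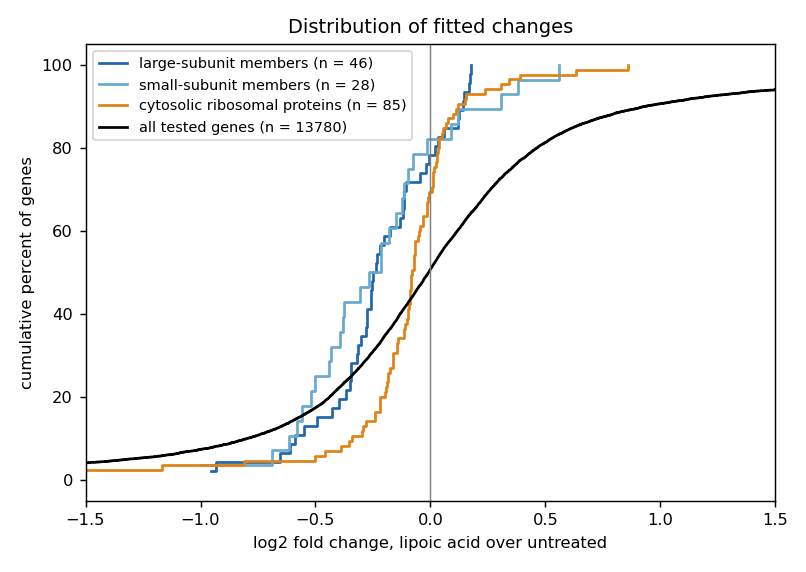
Cumulative percent of genes against the fitted log2 fold change, lipoic acid over untreated, for tested genes of the large (n = 46) and small (n = 28) mitochondrial subunit, of the cytosolic ribosome (n = 85) and for all tested genes (n = 13780). The horizontal axis stops at 1.5 on either side. The curves of both mitochondrial subunits cross the middle of the vertical axis at -0.24, that of cytosolic ribosomal proteins at -0.08 and that of all genes at -0.01.

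The members are spread over 21 chromosomes, with at most 8 on any, and many share their start region with another gene. In 18 of 74 tested members (24.3%) another protein-coding gene started within 1000 bases on the opposite strand, head to head, against 9.75% of 13014 tested coding genes. Where the member fell, 8 partners were tested, and of these 0 were called lower by edgeR (1 at an unadjusted p under 0.05, 0 by DESeq2 and 1 by limma voom), 2 were called higher and 6 did not pass. Over all tested genes 23.3% were called lower and 24.2% higher. Some partners had low levels, such as PNPLA7 at 0.479 CPM with lipoic acid and 1.18 CPM untreated. So few genes cannot show whether partners follow the members. The partners called higher were EME1, a nuclease subunit gene beside MRPL27, at 4.48 ± 0.215 CPM against 2.40 ± 0.112 CPM (adjusted p = 0.0064), and MTBP, beside MRPL13, at 4.18 ± 0.286 CPM against 2.56 ± 0.35 CPM (adjusted p = 0.0263). NDUFS6, a complex I gene that starts 34 bases from MRPL36, had 22.4 ± 2.74 CPM with lipoic acid and 21.3 ± 2.10 CPM without (adjusted p = 0.649). MRPS11 and MRPL46, both members, start 34 bases apart: MRPS11 fell 1.3-fold (adjusted p = 0.00399), whereas MRPL46 had 6.36 ± 0.256 CPM and 6.55 ± 0.622 CPM (adjusted p = 0.846). These pairs were chosen after their values were seen, and the difference within a pair was not tested.

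The fitted change varied with base composition. Across the 74 tested members the log2 fold change had a Spearman correlation of -0.32 with GC content and 0.29 with exon length, against -0.17 and 0.12 across 13768 tested genes. The points are genes that share the same 6 libraries, and no p is given. After correction of each library for GC content and exon length, 31 members fell and 2 rose, the median log2 fold change was -0.19, and 28 of the 32 genes were again called lower.

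The share of members called lower depended on which libraries were used. Leaving out lipoic acid replicate 2 or 3 left 17 of 74 members lower (23.0%) in each case, where 18.5% and 16.9% of all tested genes were lower. Within the 4 libraries of even counts, with untreated replicate 1 the sole control and assumed to vary like the others, 17 members fell (23.0%, against 17.8% of all genes) and 4 rose, and 31 of the 32 genes kept a log2 fold change below 0. Those 32 genes had been called lower with these same libraries among others, so the sign that they kept is no separate support for a fall. Without untreated replicate 2, the library that was highest for most members, 31 fell and 3 rose. The median over the members ran from -0.27 to -0.15 in the 18 other settings, while that over all genes ran from -0.02 to 0.01.

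**Figure D5:**
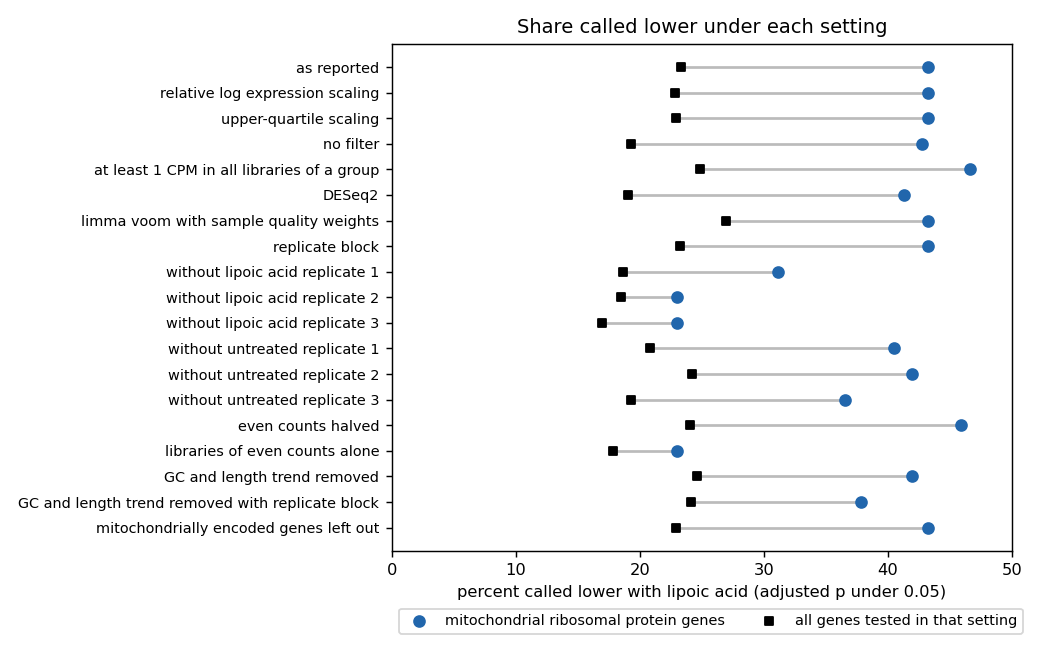
Percent of tested genes called lower with lipoic acid at an adjusted p under 0.05 under each processing setting, for the mitochondrial ribosomal protein genes (blue circles) and for all genes tested in that setting (black squares). The share for the members is above that for all genes in each of the settings, by the least without lipoic acid replicate 2 (23.0% and 18.5%).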

How the data were processed

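The authors deposited raw counts per gene symbol for 6 libraries. Per the submitters' processing notes, the tools were HISAT2, featureCounts and DESeq2 and the build hg38. Versions, settings, annotation and strand setting are not given in the sources used here. No column was left unused. The cDNA was amplified and no molecular barcodes are mentioned, so floors cover counting error only. No label states that replicates were separate cultures: the p-values cover the variation of these libraries alone, and it could be technical.

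Counts were analysed in R 4.3.3 with edgeR 4.0.16 (filterByExpr by group, TMM scaling, quasi-likelihood F test, no covariates) and a Benjamini-Hochberg adjusted p under 0.05, and the fit was tested on simulated data. CPM used TMM-scaled library sizes, with SD over the libraries of a group, and the SE of a log2 fold change was taken from its F statistic. The common biological coefficient of variation was 0.137. Other settings used limma 3.58.1 and DESeq2 1.42.0, other scalings and filters, the replicate number as a block, omission of each library, halved even counts, the libraries of even counts alone and removal of a GC content and exon length trend (splines with 5 degrees of freedom). Positions, exon overlaps, GC content and lengths came from GENCODE v29 (GRCh38), which held 99.36% of symbols. Level per kb used the median length of a gene's protein-coding transcripts.

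The members, lists and tests were chosen with earlier results of these data known. Members named were the 10 with the largest called rise (3 existed) and fall, the 3 highest per kb in each subunit, those not tested, MRPS18A, MRPS18B, MRPS18C, MRPS30, MRPS36 and MRPL12, and from each related list up to 4 called genes of lowest p. Other named genes were chosen after their values were seen.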

Additional observations from a re-analysis of the deposited data

How the results depend on the processing

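The number of members called lower stayed within 1.5 times of 32, and those of each subunit within 1.5 times of 20 and 12, under other scalings, filters, DESeq2, limma voom, halved even counts, omission of mitochondrially encoded genes and correction for GC content and length. Within the 4 libraries of even counts 17 members were called lower, 9 of them in the large subunit, and 3 large-subunit and 1 small-subunit genes were called higher, on fewer libraries. Omission of 1 library at a time gave 17 to 31 members lower (9 to 19 large, 7 to 12 small) and 1 to 4 higher (0 to 2 large, 1 to 4 small). Large-subunit genes called higher, 0 as reported, were 2 by limma voom, 1 with the replicate block and 1 after correction for GC content and length, with or without that block. Small-subunit genes called higher, 3 as reported, were 1 after that correction, with or without the block. The cause was not tested. Summed levels kept their direction in every setting tried for them, which did not include the libraries of even counts alone. No label says that replicate numbers pair the libraries. Same-numbered libraries had correlations of deviations from group means of 0.0598, 0.0602 and 0.0783, none over 0.1, and other pairs had -0.0579 to 0.00941. Each library correlated best with its own number, a hint of pairing from the data and not the design. With the replicate block 32 members were called lower (21 large, 11 small) and 3 higher (1 large, 2 small), not all of them those reported: MRPS31 (adjusted p = 0.0574) and MRPS5 (0.0583) were no longer called. With the block and that correction together 28 were lower. Of 767 comparisons of a named gene with another setting, 705 kept their direction and side of the threshold, 49 lost the call, 7 gained it and 6 reversed: MRPL45 (0.11) and MRPS18B (0.17) within the libraries of even counts, and PTCD3 (-0.02) and AURKAIP1 (0.05) after the correction, each with and without the block. MRPS18B, MRPL38, MRPL23 and MRPS24 had few counts or none, at or under about 1 CPM, which limits what can be said of them. Why they were so low was not tested.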
